A study of Solanum lycopersicum with 18 samples.

Results

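The 5 genes of carotenoid synthesis DXS, Psy1, PDS, ZDS and CrtR-b1 are described here in the order in which their enzymes act. Their probe sets are those that the array's platform annotation assigns to these 5 names, and the genes were chosen with earlier results of these data known. A probe set is the group of short array probes that together report 1 transcript. The annotation gave 7 probe sets for the 5 genes, of 10209 probe sets in the deposited table. DXS (NCBI gene 544220), PDS (544073), ZDS (543629) and CrtR-b1 (544133) have 1 probe set each. Psy1 (543988) has 3, and the brightest stands for the gene below. The array names no genome build, so no coordinates are given.

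Carotenoids are the red, orange and yellow pigments that plastids make from isoprenoid units. Deoxyxylulose phosphate synthase (DXS) makes the first intermediate of the plastid isoprenoid route, and phytoene synthase (PSY1 in fruit) joins isoprenoid chains into phytoene, the first carotenoid and a colourless one. Phytoene desaturase (PDS) and zeta-carotene desaturase (ZDS) then add the double bonds that lead to red lycopene, and a beta-carotene hydroxylase (encoded by CrtR-b1) makes xanthophylls further down. Ripening tomatoes turn red because lycopene builds up as chlorophyll is lost.

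The arrays hold pericarp, the fleshy wall of the fruit, of the tomato variety Pusa Ruby, and the design compared wild-type fruit with that of the rin (ripening inhibitor) mutant at matched ages. Wild-type fruit was sampled at 35 days after planting (DAP, the wording of the labels), labelled immature green, at 40 DAP, labelled breaker, and at 45 DAP, labelled red-ripe. Fruit of the rin mutant, whose lesion lies at the MADS-box transcription factor gene RIN, was sampled at the same 35, 40 and 45 DAP and carries the same stage labels although such fruit does not ripen normally. Each of the 6 groups holds 3 arrays, so there are 18. No treatment other than genotype and age distinguishes the groups.

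The titles number the plants 1 to 3 within each group and call them biological replicates. Sample codes in the same titles differ within each group but recur across ages, some of them at all 3 ages of their genotype, in wild type as in rin. Whether the same plants were sampled at several ages is not settled, so arrays of different ages may not be independent. What the p-values measure is the spread between arrays within groups, some of which may be technical. The submitters' notes on growth and treatment describe seedlings and shoot tissue, whereas the titles and tissue labels name fruit and pericarp. The RIN probe set was at or below the 30th percentile of its own array on all 9 rin arrays (5.106 to 9.273) and averaged 152 ± 87 (SD, n = 3), 4354 ± 485 and 5964 ± 838 in wild type at 35, 40 and 45 DAP. A signal at or below that percentile (11.3 to 15.34 across arrays) is called dim below. Of 9 probe sets of a pericarp and ripening marker list, 7 to 9 were above dim on all arrays of each group. Their summed signal ran from 48610 to 60600 in wild type at 40 and 45 DAP and from 19460 to 28580 in rin at those ages. The summed signal of 5 markers of green tissue was lower in wild type than in rin at 45 DAP (1482 to 2599 against 4260 to 4812) and higher at 40 DAP (5404 to 7879 against 3186 to 5025), without overlap at either age. At 35 DAP it overlapped (4827 to 7595 against 3031 to 6633). Of 2 root markers, exp18 was dim on all arrays of both genotypes at 40 and 45 DAP. With RSI-1, the other, they summed to 584.6 to 2055 in wild type and 107.8 to 272.2 in rin at 40 DAP, and to 2549 to 6644 and 20.22 to 78.54 at 45 DAP. The 2 cuticle markers summed to 1516 to 6773 in wild type and 616.3 to 1996 in rin at 40 DAP, and to 764.7 to 1073 and 1497 to 7001 at 45 DAP. The 1 seed marker was dim on every array (4.645 to 6.43). Because a bulk sample was measured, fewer cells of a type and less RNA per cell cannot be told apart in any result below.

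Along the pathway, wild-type signals of DXS, Psy1, PDS and ZDS rose between 35 and 45 DAP, with the largest log2 change at Psy1. In rin those of Psy1 and PDS also rose over the same 10 days, while DXS and ZDS did not pass the test. At 45 DAP Psy1 was lower in rin than in wild type, and PDS was not called. CrtR-b1 went another way, with higher signal in wild type at 45 DAP and lower signal in rin than at 35 DAP. Differences between the genotypes passed the test at 40 and 45 DAP and at none of the 5 genes at 35 DAP. Levels of different genes are not set against each other, because the probes of each set respond differently.

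**Figure D1:**
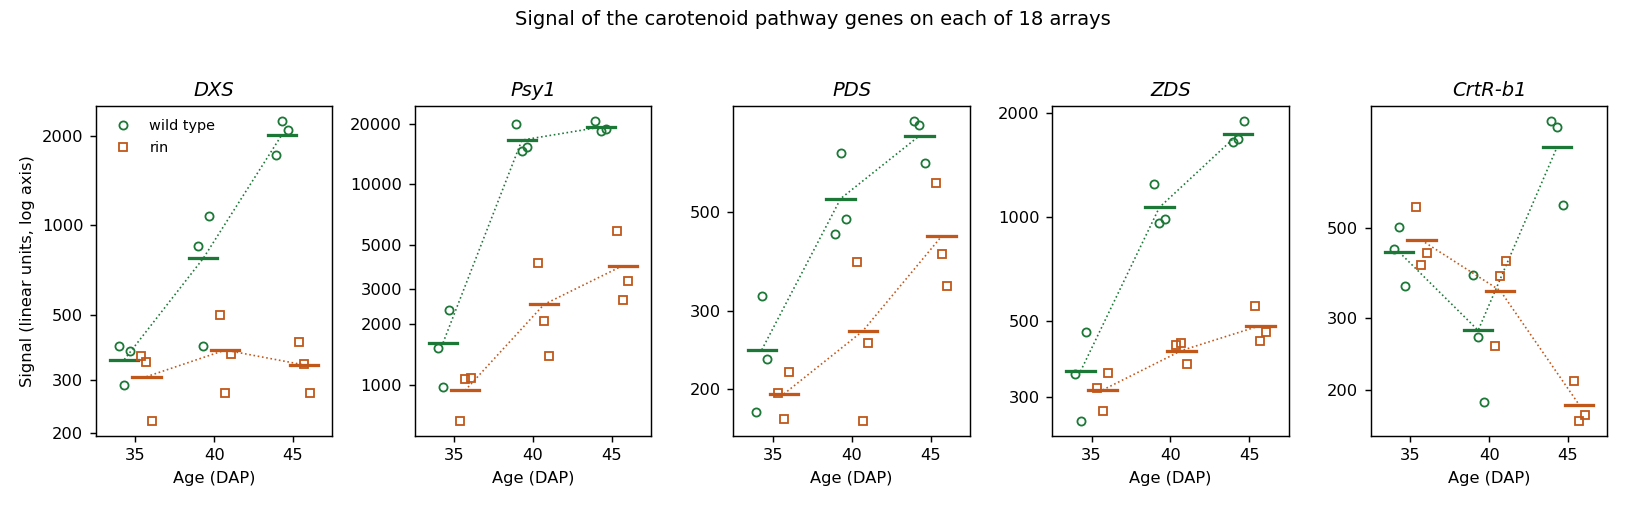
Signal (linear units, log axis with its own range for each gene) against age in DAP for DXS, Psy1, PDS, ZDS and CrtR-b1, 1 point for each of the 18 arrays, with circles for wild type and squares for rin. Short bars mark the mean of 3 arrays and dotted lines join them; points are spread sideways for legibility. Wild-type Psy1 climbs from a mean of 1616 to 16620 between 35 and 40 DAP, and after 40 DAP the CrtR-b1 means go from 280.2 to 791.2 in wild type and from 351.1 to 183.9 in rin.

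DXS, which feeds the plastid isoprenoid route, rose throughout ripening in wild type and showed no called change with age in rin. Its signal on the 3 wild-type arrays was 391.2, 288.8 and 378.4 at 35 DAP, 852.6, 393.1 and 1076 at 40 DAP, and 1735, 2246 and 2098 at 45 DAP. Every wild-type array at 45 DAP lay above every younger one, while 1 array at 40 DAP stayed close to the green fruit. On the rin arrays the signal was 361.7, 345.5 and 219.2 at 35 DAP, 499.8, 271.2 and 368.4 at 40 DAP, and 403.5, 339.7 and 272.3 at 45 DAP. The 3 ages of rin overlapped one another and overlapped wild type at 35 DAP.

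The wild-type mean of DXS went from 352.8 ± 55.8 (SD, n = 3) at 35 DAP to 774 ± 348 at 40 DAP and 2026 ± 263 at 45 DAP. The first step was a log2 change of 1.03 (adjusted p = 0.0306, limma, in which adjustment ran over all 7717 probe sets tested and the threshold was 0.05). The second step was 1.5 (adjusted p = 0.0118). In rin, 45 against 35 DAP gave a log2 change of 0.15 (95% interval -0.57 to 0.86, adjusted p = 0.809), with means of 308.8 ± 78.0, 379.8 ± 115 and 338.5 ± 65.6 at the 3 ages. At 45 DAP the genotypes did not overlap, and DXS was 6.029-fold lower in rin (log2 difference -2.59, SE 0.34, adjusted p = 5.24e-05). At 40 DAP the arrays overlapped and the call was marginal (log2 difference -0.95, SE 0.34, adjusted p = 0.0487). It was lost on leaving out any 1 of 14 arrays, with adjusted p from 0.0517 to 0.195, and held only without array 2 of wild type at 40 DAP, array 1 or 3 of rin at 35 DAP, or array 1 of rin at 40 DAP. The wild-type step from 35 to 40 DAP lost its call without any 1 of the 3 green arrays (adjusted p = 0.0543, 0.102 and 0.0563) or without array 1 or 3 at 40 DAP (adjusted p = 0.102 and 0.138). The step from 40 to 45 DAP lost it without array 2 at 45 DAP (adjusted p = 0.0569).

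Psy1, whose enzyme makes phytoene in fruit, rose 10.86-fold in wild type between 35 and 40 DAP, after which no further change was called. The 3 wild-type arrays gave 1527, 969.6 and 2351 at 35 DAP, 19950, 14610 and 15290 at 40 DAP, and 20610, 18370 and 18910 at 45 DAP. All 6 arrays at 40 and 45 DAP lay far above the 3 of green fruit, and the 2 older ages overlapped. The rin arrays gave 658.7, 1068 and 1077 at 35 DAP, 4062, 2079 and 1391 at 40 DAP, and 5816, 2651 and 3302 at 45 DAP. Each rin array at 40 and 45 DAP lay above each rin array at 35 DAP, and below each wild-type array of its own age.

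Wild-type means of Psy1 were 1616 ± 695 (SD, n = 3), 16620 ± 2900 and 19300 ± 1170, and the log2 change from 35 to 40 DAP was 3.44 (limma adjusted p = 2.69e-05). From 40 to 45 DAP the log2 change was 0.23 (adjusted p = 0.803). The wild-type signals at 40 and 45 DAP were 75.5% to 99.9% of the highest signal on their own arrays. In rin at these ages the range was 6.37% to 30.7%. Whether a limit at the top of the scale held down the wild-type values was not tested. The rin means were 934.5 ± 239, 2511 ± 1390 and 3923 ± 1670. Against 35 DAP, rin at 40 DAP was not called although its arrays did not overlap (log2 change 1.32, adjusted p = 0.292), and rin at 45 DAP was 4.066-fold higher (log2 change 2.02, adjusted p = 0.00728). Between genotypes Psy1 was 7.239-fold lower in rin at 40 DAP (log2 difference -2.86, 95% interval -3.67 to -2.04, adjusted p = 0.000137). At 45 DAP it was 5.2-fold lower (log2 difference -2.38, 95% interval -3.20 to -1.56, adjusted p = 0.000341). At 35 DAP the log2 difference was -0.73 (SE 0.38, adjusted p = 0.641) and the arrays overlapped.

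The other probe sets of Psy1 had much lower signal. One was dim on all rin arrays and on the green wild-type arrays, and averaged 38.9 ± 17.5 (SD, n = 3) and 46.5 ± 7.28 in wild type at 40 and 45 DAP. Its signal in wild type exceeded that in rin at least 2.455-fold at 40 DAP and at least 3.229-fold at 45 DAP. It passed the filter on dim signals only through these wild-type arrays, so that no test is given for it. Here "at least" means that each dim signal was raised to its array's 30th percentile before the ratio was taken. The remaining probe set was dim on all 18 arrays (6.39 to 13.1), failed the filter on dim signals and was not tested.

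PDS, which takes phytoene towards zeta-carotene, rose between 35 and 45 DAP in wild type and, with a call that several settings ended, in rin. Its wild-type signals were 177.5, 323.5 and 233.7 at 35 DAP, 446.4, 677.6 and 482.1 at 40 DAP, and 798.4, 782.3 and 642.8 at 45 DAP. Green fruit lay below both older ages, which overlapped each other. In rin the signals were 195.6, 171.1 and 217.9 at 35 DAP, 385.5, 169.6 and 254.2 at 40 DAP, and 580.2, 401.2 and 340.1 at 45 DAP. The oldest rin arrays lay above the youngest, and overlapped wild-type arrays of 40 DAP.

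The wild-type mean of PDS went from 244.9 ± 73.6 (SD, n = 3) to 535.4 ± 124 and 741.2 ± 85.5, a 3.104-fold change over 10 days (log2 change 1.63, limma adjusted p = 0.000597). The rin mean went from 194.9 ± 23.4 to 269.8 ± 109 and 440.5 ± 125, a 2.214-fold change (log2 change 1.15, adjusted p = 0.0289). The difference between these changes was -0.49 (95% interval -1.40 to 0.43, adjusted p = 0.49). PDS was 2.063-fold lower in rin at 40 DAP (log2 difference -1.04, SE 0.30, adjusted p = 0.0202). At 45 DAP its arrays did not overlap between genotypes, but the difference was not called (log2 difference -0.78, 95% interval -1.43 to -0.13, adjusted p = 0.0677). These calls turned on single arrays. At 40 DAP the call was lost without array 2 of wild type (adjusted p = 0.0763) or array 2 or 3 of rin (adjusted p = 0.0921 and 0.0592), all of that age. At 45 DAP a call was gained without array 1 of rin at 45 DAP (log2 difference -1.0, adjusted p = 0.0343) or array 1 or 2 of rin at 40 DAP (adjusted p = 0.0445 and 0.043). The wild-type step from 35 to 40 DAP (log2 change 1.15, adjusted p = 0.0103) lost its call without array 1 of green fruit (adjusted p = 0.0556). The rise in rin was not called with only the rin arrays of these ages fitted (adjusted p = 0.0654), with rin arrays 2 and 3 at 45 DAP averaged (0.0577), or with the 3' to 5' signal ratio of control transcripts as covariate (0.0943). It also lost its call without array 2 or 3 at 35 DAP (adjusted p = 0.107 and 0.0569) or array 1 or 2 at 45 DAP (adjusted p = 0.0881 and 0.0695).

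ZDS, the desaturase next in line, rose at both wild-type steps, and its genotype differences had the smallest standard error of the 5 genes. Its wild-type signals were 351.3, 256.3 and 462.1 at 35 DAP, 1244, 960.4 and 984.3 at 40 DAP, and 1639, 1672 and 1886 at 45 DAP. The 3 wild-type ages did not overlap. In rin the signals were 318, 274.2 and 351.9 at 35 DAP, 423.9, 429.4 and 374.8 at 40 DAP, and 549.9, 436.5 and 463.8 at 45 DAP. The rin ages did not overlap either, but all 9 rin arrays lay below all 6 wild-type arrays of 40 and 45 DAP.

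Wild-type means of ZDS were 356.6 ± 103 (SD, n = 3), 1063 ± 157 and 1732 ± 134, which is 3.046-fold over the first step (log2 change 1.61, limma adjusted p = 6.73e-05) and 1.638-fold over the second (log2 change 0.71, adjusted p = 0.0424). Leaving out any 1 of 10 arrays ended the call of the second step (adjusted p 0.0518 to 0.13), among them every array of wild type at 45 DAP, arrays 2 and 3 at 40 DAP and array 1 at 35 DAP. The others were arrays 1 and 3 of rin at 40 DAP and 2 and 3 at 45 DAP. The rin means were 314.7 ± 38.9, 409.4 ± 30 and 483.4 ± 59.2, and 45 against 35 DAP was not called (log2 change 0.62, adjusted p = 0.0607). Without array 2 or 3 of wild type at 35 DAP, which enter through the shared spread, it was (adjusted p = 0.0416 and 0.0481). ZDS was 2.583-fold lower in rin at 40 DAP (log2 difference -1.37, SE 0.20, adjusted p = 0.000265). It was 3.594-fold lower at 45 DAP (log2 difference -1.85, 95% interval -2.28 to -1.41, adjusted p = 1.14e-05).

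CrtR-b1, which encodes a beta-carotene hydroxylase, differed between the genotypes at 45 DAP and not at 40 DAP, and the change between these ages differed by the interaction test given below. Its wild-type signals were 445.6, 502.3 and 361.3 at 35 DAP, 384.2, 269.9 and 186.6 at 40 DAP, and 916.5, 886.4 and 570.8 at 45 DAP. The 3 red-ripe arrays lay above all younger wild-type arrays, and the 2 younger ages overlapped. In rin the signals were 562.4, 405.2 and 434.5 at 35 DAP, 257.1, 381.8 and 414.3 at 40 DAP, and 209.9, 167.8 and 173.9 at 45 DAP. The 3 oldest rin arrays lay below all other rin arrays.

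Means of CrtR-b1 in wild type were 436.4 ± 70.9 (SD, n = 3), 280.2 ± 99.2 and 791.2 ± 192. The step from 40 to 45 DAP was 2.883-fold upwards (log2 change 1.53, limma adjusted p = 0.00331), after a step from 35 to 40 DAP that was not called (log2 change -0.69, adjusted p = 0.0757) and was without array 1 at 40 DAP (log2 change -0.95, adjusted p = 0.0249). In rin the means were 467.3 ± 83.6, 351.1 ± 83.0 and 183.9 ± 22.7, and 45 DAP was 2.528-fold below 35 DAP (log2 change -1.34, adjusted p = 0.0107). At 45 DAP the genotypes differed 4.23-fold, with rin lower (log2 difference -2.08, SE 0.28, adjusted p = 7.38e-05). At 40 DAP they overlapped, with a log2 difference of 0.36 (95% interval -0.24 to 0.95, adjusted p = 0.366). The wild-type rise between 35 and 45 DAP (log2 change 0.84, adjusted p = 0.0245) was lost without array 1 or 3 at 35 DAP (adjusted p = 0.0542 and 0.0947) or array 1 or 2 at 45 DAP (adjusted p = 0.0968 and 0.0859).

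Over the 5 genes, none was called between the genotypes at 35 DAP in limma, beside 0.337% of all tested probe sets. None had an unadjusted p under 0.05 there. The 5 log2 differences ran from -0.73 for Psy1 to 0.10 for CrtR-b1 with a median of -0.21, against a median of -0.03 over all tested probe sets. At 40 DAP 4 of 5 were called lower in rin and none higher, beside 10.8% of all probe sets lower and 25.9% in either direction. Their median log2 difference was -1.04, against 0.07 over all probe sets. The arrays of 3 of the 5 (Psy1, PDS and ZDS) did not overlap, as was so for 40.0% of probe sets.

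At 45 DAP 4 of 5 were again called lower, here DXS, Psy1, ZDS and CrtR-b1, beside 15.0% of all probe sets lower and 28.2% in either direction. The median log2 difference was -2.08, against -0.12 over all probe sets. All 5 genes had arrays that did not overlap, as had 48.6% of probe sets. The pericarp and root marker lists summed higher in wild type than in rin at both ages, while the green tissue and cuticle lists summed lower in wild type at 45 DAP, with the values given above. Members did not all follow these sums. PE1 and PMEU1 of the pericarp list had higher means in rin at both ages (12500 and 278.2 against 5602 and 5.393 at 45 DAP). The rest of that list had higher means in wild type, where PG2 was brightest at 45 DAP (22820 against 4517 in rin). PSBO of the green list averaged 1895 in wild type and 1682 in rin at 45 DAP. The part of these lists in the differences at 40 and 45 DAP was not tested.

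**Figure D2:**
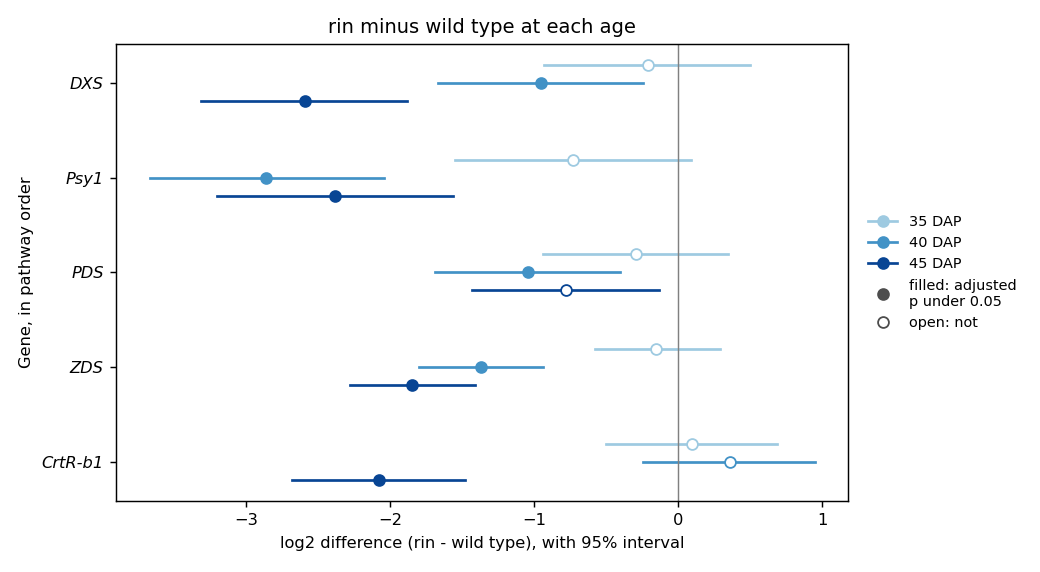
Log2 difference, rin minus wild type (horizontal axis), for each of the 5 genes (vertical axis, pathway order) at 35, 40 and 45 DAP, with 95% intervals from limma over 3 arrays a group. Filled points have an adjusted p under 0.05 and open points do not. All points at 35 DAP are open, Psy1 has the lowest value at 40 DAP (-2.86), and CrtR-b1 moves from 0.36 at 40 DAP to -2.08 at 45 DAP.

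With age in wild type, 4 of 5 genes were called higher at 40 than at 35 DAP (DXS, Psy1, PDS and ZDS), beside 14.5% of all probe sets higher and 30.9% in either direction. From 40 to 45 DAP 3 of 5 were called higher (DXS, ZDS and CrtR-b1), beside 3.56% higher and 8.31% in either direction. Between 35 and 45 DAP all 5 were higher, beside 23.6% of all probe sets higher and 42.6% in either direction. In the same 10 days in rin, Psy1 and PDS were called higher and CrtR-b1 lower, beside 6.0% of all probe sets higher, 5.30% lower and 11.3% in either direction.

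Neither single step of rin gave a limma call among the 5 genes. Over the first, 0.0259% of all probe sets were called, and over the second 0.363%. At the looser unadjusted p under 0.05, 1 gene (Psy1) passed in the first step and 2 in the second. No share of all probe sets is given at that threshold. In the second step CrtR-b1 arrays did not overlap and the log2 change was -0.91 (adjusted p = 0.18). For PDS it was 0.75 (adjusted p = 0.331).

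**Figure D3:**
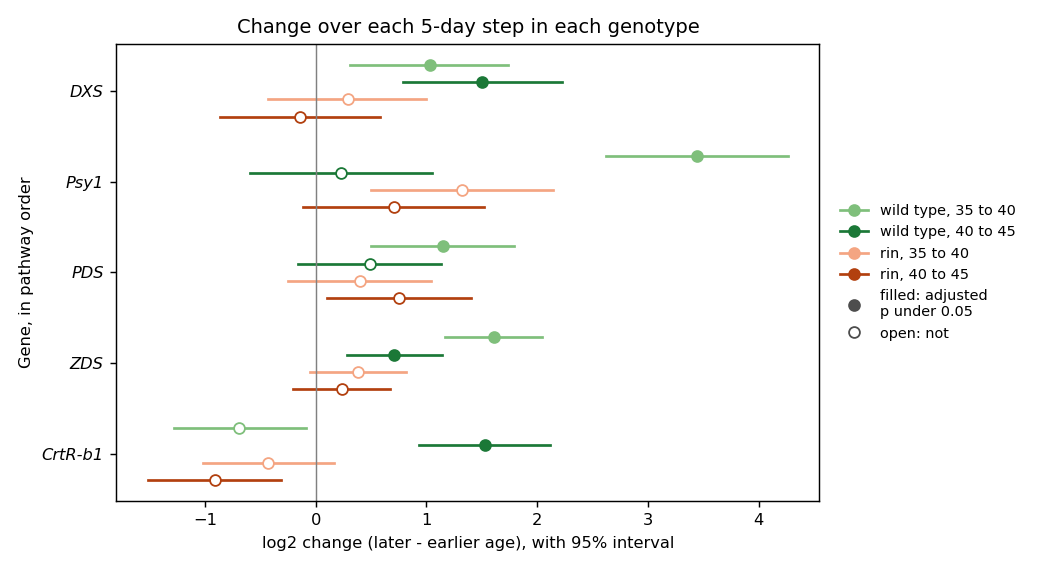
Log2 change (later minus earlier age, horizontal axis) of each gene (vertical axis) over the steps from 35 to 40 and from 40 to 45 DAP in wild type and in rin, with 95% intervals from limma over 3 arrays a group. Filled points have an adjusted p under 0.05 and open points do not. Psy1 has nearly all of its wild-type change in the first step (3.44, then 0.23), whereas CrtR-b1 falls below 0 in the first (-0.69) and rises in the second (1.53).

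The interaction asks whether a change with age differed between the genotypes, and is given as the rin change minus the wild-type change on the log2 scale. From 35 to 40 DAP it was called for 2 of 5 genes, Psy1 (-2.12, limma adjusted p = 0.0249) and ZDS (-1.22, adjusted p = 0.0162), beside 9.37% of all probe sets. The call for Psy1 was lost without any 1 of 6 arrays. These were arrays 1 and 2 of wild type at 35 DAP (adjusted p = 0.0505 and 0.0601), array 1 of wild type at 40 DAP (adjusted p = 0.0528), arrays 2 and 3 of rin at 35 DAP (adjusted p = 0.0535 and 0.0645) and array 3 of rin at 40 DAP (adjusted p = 0.0683). From 40 to 45 DAP it was called for CrtR-b1 alone of the 5 (-2.44, adjusted p = 0.00434), beside 3.81% of all probe sets, and for DXS it was -1.64 (adjusted p = 0.0695). Over the full 10 days it was called for DXS (-2.38, adjusted p = 0.0043), ZDS (-1.70, adjusted p = 0.0014) and CrtR-b1 (-2.18, adjusted p = 0.00239), beside 13.2% of all probe sets. For Psy1 it was -1.65 (adjusted p = 0.0591). That value was called without array 3 of wild type at 35 DAP (adjusted p = 0.0349), array 1 of rin at 35 DAP (adjusted p = 0.0344), array 1 or 3 of rin at 40 DAP (adjusted p = 0.0308 and 0.0446) or array 1 of rin at 45 DAP (adjusted p = 0.0249).

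The second wild-type step minus the first, on the log2 scale, restates the values above and was chosen after seeing them, so it is given as a description. It passed the threshold for 2 of 5 genes, beside 8.53% of all probe sets. For Psy1 it was -3.21, with the signals of both later ages near the top of their arrays' range. For CrtR-b1 it was 2.22, and without array 3 at 40 DAP 1.69. For DXS it was 0.48, for PDS -0.66 and for ZDS -0.89. That of DXS turned sign without array 2 at 40 DAP (-0.38).

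Array 1 of rin at 40 DAP and array 1 at 45 DAP held the highest DXS, Psy1 and PDS signal of their groups. Leaving out arrays with the highest signal must widen the difference from wild type for these genes, so the values without them are a description of how far 2 arrays reach. At 40 DAP the log2 difference was then -3.27 for Psy1, -1.34 for PDS and -1.17 for DXS. At 45 DAP it was -2.70 for Psy1, -1.0 for PDS and -2.73 for DXS. The rise in rin between 35 and 45 DAP was then 0.93 for PDS, no longer called (limma adjusted p = 0.0559), and 1.70 for Psy1 (adjusted p = 0.00716).

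Ordered by mean signal over the 6 groups, DXS, Psy1, PDS and ZDS all had wild type at 45 DAP first, wild type at 40 DAP next and rin at 35 DAP last. Arrays of neighbouring groups in that order did not overlap between the first and second group for DXS, and between wild type at 40 DAP and rin at 45 DAP for Psy1. For ZDS the same held at each of the first 3 boundaries, the last of them between rin at 45 and at 40 DAP. For PDS every pair of neighbours overlapped. For CrtR-b1 wild type at 45 DAP came first and did not overlap rin at 35 DAP, which came next, and rin at 45 DAP came last.

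Within groups the 5 genes mostly did not move together. The deviations of single arrays from their group mean, on the log2 scale, correlated at r = 0.67 between Psy1 and ZDS over 18 arrays. The other 9 pairs ran from -0.30 to 0.31. These are descriptions, since the values of each pair come from the same arrays.

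Among 687 named probe sets past the filter, likeness was measured as the Pearson r of log2 signal over the 18 arrays, which the group differences dominate. Closest to DXS were ZDS (r = 0.895), DCL (0.888) and LOC543943 (0.887). Closest to Psy1 were CLPP2 (r = 0.976), LOC544279 (0.972) and GSH1 (0.968). For PDS they were DIG3 (r = 0.93), ISPE (0.929) and PTOX (0.924), the latter both on the pathway list below. For ZDS they were HRBP1 (r = 0.97), UCP (0.963) and ACS2 (0.96), and for CrtR-b1 app2 (0.861), ER49 (0.758) and LOC543852 (0.752). Taken over the 6 group means in place of the arrays, the leading 3 kept 1 gene for Psy1 (CLPP2) and none for the other 4. ACS2 was dim on every array of green wild type and of the younger rin groups, and on 2 of the 3 oldest rin arrays. Its r with ZDS thus rests largely on dim signals set against high ones in breaker and red-ripe wild type (means 2421 and 4324).

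Other genes of the pathway came from a list of 74 symbols, of which 18 genes had 19 probe sets on the array and 18 probe sets passed the filter, with VDE losing 1 of its 2. None was called at 35 DAP, beside 0.337% of all probe sets. At the looser unadjusted p under 0.05, for which no such share is given, 1 passed. That gene was HMGR, of the cytosolic mevalonate route, at 24.0 in rin and 119.4 in wild type (log2 difference -2.20, limma adjusted p = 0.061). At 40 DAP 4 of 18 were lower and none higher, beside 10.8% of all probe sets lower and 25.9% in either direction. At 45 DAP 4 were lower and 2 higher, beside 15.0% of all probe sets lower and 28.2% in either direction. The 4 lower at each age include FLACCA, which matched the list only through a shared synonym. The median log2 difference of the 18 was -0.26 at 40 DAP and -0.44 at 45 DAP.

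Among the precursor genes, ISPE and HDS encode later enzymes of the plastid route that DXS opens. ISPE signals in wild type were 118.6, 269.7 and 159.3 at 35 DAP, 1227, 801.7 and 829.3 at 40 DAP, and 1062, 1113 and 1040 at 45 DAP. In rin at 40 DAP they were 551.1, 150 and 329.8, and at 45 DAP 855.2, 275.1 and 294.5. All rin arrays of these ages lay below wild type of the same age, with array 1 of each rin group nearest to it.

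ISPE was lower in rin at 40 DAP (log2 difference -1.63, limma adjusted p = 0.0186) and at 45 DAP (-1.38, adjusted p = 0.0382). The first call was lost without array 1 of wild type or array 2 of rin at 40 DAP (adjusted p = 0.0704 and 0.0861), and the second without any 1 of the 3 wild-type arrays at 45 DAP (adjusted p = 0.0899, 0.094 and 0.0738) or array 2 or 3 of rin (adjusted p = 0.159 and 0.149). HDS averaged 904.3 in rin and 1594 in wild type at 40 DAP (log2 difference -0.82, adjusted p = 0.0133; without array 3 of rin 0.054) and 990.2 and 1879 at 45 DAP (-0.93, adjusted p = 0.00554). DXR, between DXS and ISPE, was not called at either age (-0.22, adjusted p = 0.659, and -0.34, adjusted p = 0.477). FPPS1, a farnesyl diphosphate synthase, was higher in rin at 45 DAP, at 2089, 1722 and 1563 on the 3 rin arrays against 311.1, 371.4 and 566.1 in wild type (4.413-fold, log2 difference 2.14, adjusted p = 0.000574). FLACCA matched the list only through a shared synonym and is a molybdenum cofactor sulfurase. It was lower in rin at 40 DAP (-1.19, adjusted p = 0.016; without array 3 of rin at that age 0.0578) and at 45 DAP (-1.66, adjusted p = 0.00185).

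PTOX, the plastid terminal oxidase that takes up electrons released by the desaturases, gave 224.3, 341.3 and 290.2 in wild type at 35 DAP, 968.4, 1294 and 900.8 at 40 DAP, and 1832, 1657 and 2364 at 45 DAP. In rin it gave 243, 181 and 369.1, then 444.6, 263.8 and 314.3, then 562, 401.2 and 488.3. Each wild-type array at 40 and 45 DAP lay above every rin array. The log2 difference was -1.65 at 40 DAP (limma adjusted p = 0.000707) and -2.01 at 45 DAP (adjusted p = 9.48e-05). PSY2, the phytoene synthase of green tissue, was not called at 40 DAP (log2 difference -0.48, adjusted p = 0.346) or at 45 DAP (-0.62, adjusted p = 0.218).

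Under the cyclases 3 probe sets were tested and none was called between genotypes. Of these, CRTL-E-1 was dim on all but 3 arrays. NSY, the annotation's name for neoxanthin synthase, was counted here through the synonym Cyc-B, although the list also names NSY among the xanthophyll genes. LCY1, a lycopene beta-cyclase that draws lycopene towards beta-carotene, averaged 315.9, 72.6 and 46.9 in wild type at 35, 40 and 45 DAP. It fell by 2.21 on the log2 scale over the first step (limma adjusted p = 0.0282) and by 2.63 over 10 days. The first of these was lost without array 1 or 3 at 35 DAP (adjusted p = 0.108 and 0.096) or array 2 or 3 at 40 DAP (adjusted p = 0.119 and 0.066). In rin LCY1 averaged 236.1, 255.6 and 101.7 at the same ages. No change with age was called there, although its rin arrays at 35 and 45 DAP did not overlap. Its log2 difference between genotypes was 1.63 at 40 DAP (adjusted p = 0.102), where the rin arrays gave 77.65, 537.9 and 151.2. VDE, violaxanthin de-epoxidase of the xanthophyll cycle, gave 148.3, 102.6 and 127.5 in rin at 45 DAP and 10.42, 21.54 and 61.33 in wild type, where array 1 was dim. The arrays did not overlap and VDE was higher in rin (log2 difference 2.38, adjusted p = 0.0125), with a ratio of geometric means of 5.065 once the dim signal was raised to its array's percentile. The ratio rests on single arrays. Without array 1 of wild type at 45 DAP it was 3.43 (adjusted p = 0.0725), and without array 3 it was 8.34. ZEP, which encodes zeaxanthin epoxidase, was not called (adjusted p = 0.207 and 0.232 at 40 and 45 DAP), nor were the 3 genes of carotenoid cleavage and abscisic acid synthesis or the light signalling genes DDB1 and DET1.

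With age in wild type, 6 of the 18 were higher and 3 lower at 45 than at 35 DAP, beside 23.6% of all probe sets higher and 42.6% in either direction. Higher were PTOX (log2 change 2.78), ISPE (2.64), FLACCA (1.96), DET1 (1.49, with 1 green array dim), HDS (1.12) and DDB1 (0.93). Lower were LCY1 (-2.63), HMGR (-2.03) and FPPS1 (-1.11; without array 2 at 35 DAP or array 1 or 2 at 45 DAP limma adjusted p = 0.0963, 0.101 and 0.0697). In rin 1 of the 18 was called, PTOX (0.92, adjusted p = 0.0459), beside 6.0% of all probe sets higher and 11.3% in either direction. Leaving out any 1 of 12 arrays ended the call of PTOX (adjusted p 0.0508 to 0.199).

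**Figure D4:**
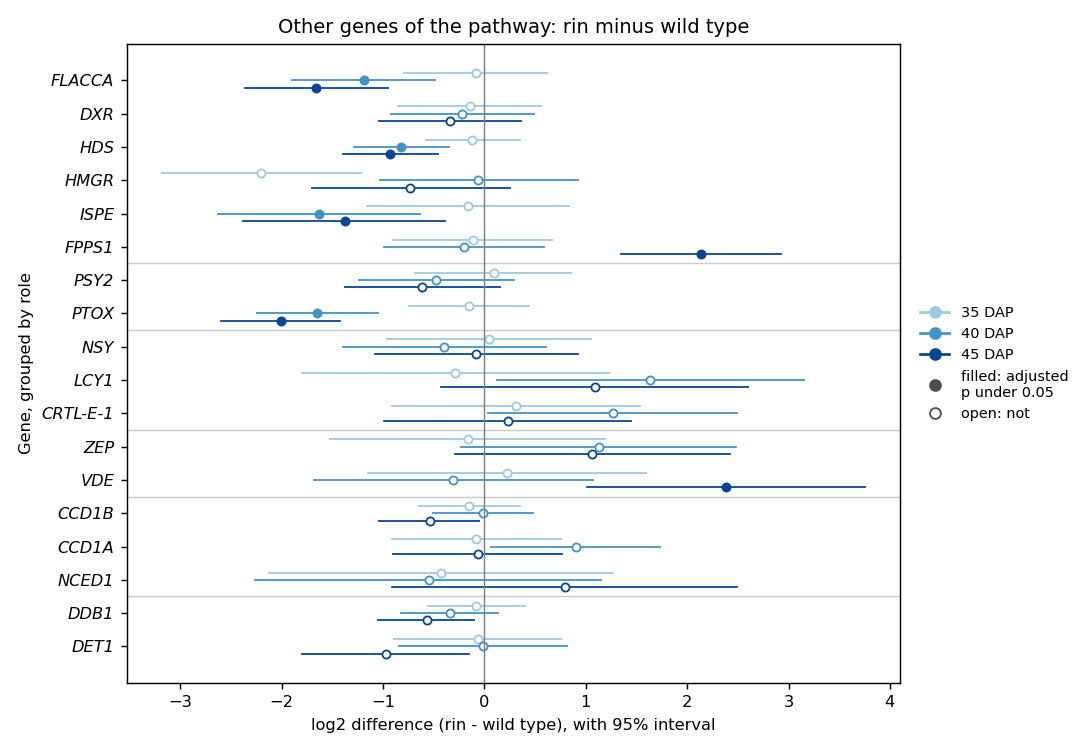
Log2 difference, rin minus wild type (horizontal axis), for the 18 other pathway probe sets past the filter (vertical axis, grouped by role with grey lines between groups) at 35, 40 and 45 DAP, with 95% intervals from limma over 3 arrays a group. Filled points have an adjusted p under 0.05 and open points do not. PTOX, ISPE, HDS and FLACCA lie below 0 with filled points at both 40 and 45 DAP, while FPPS1 (2.14) and VDE (2.38) lie above 0 at 45 DAP.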

How the data were processed

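The authors deposited linear intensity values, 1 for each probe set on each array, from biotin-labelled cRNA. GCOS is the tool named in the submitters' processing notes, without a version; its scaling target is not given in the sources used. The trimmed means of the arrays, 327.6 to 348.2, show that the deposited intensity values had been brought to a common level, so nothing further was normalized.

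Of 10209 probe sets, 108 controls and 2384 that exceeded their own array's 30th percentile on fewer than 3 of 18 arrays were left out, which left 7717. Log2 signals were fitted with limma 3.58.1 in R 4.3.3 (Python 3.11.15 for names and matplotlib 3.10.9 for figures). One model held 6 group means, with moderated variances that follow signal (eBayes with trend), two-sided tests and Benjamini-Hochberg adjustment within each comparison, and a call needed an adjusted p under 0.05. Its recovery of known changes was checked on simulated data. Folds are ratios of geometric means, and means ± SD are of linear signals. The 3 arrays in each group limit the precision.

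Gene names came from the platform annotation and were updated through RefSeq assembly SLM_r2.1, which matched 885 of 909 named probe sets and all 5 genes. All members were named, as were called genes of the other pathway list, those the results refer to, and the 3 closest by likeness. The members and lists were chosen with earlier results of these data known. Of 12 comparisons fitted from the design, all shared the 18 arrays, so that comparisons with a group in common are not independent. Alternatives covered the scaling, filter, offset, variance trend, arrays entering the fit, replicate block, title codes and RNA 3' to 5' ratio. On the log2 scale that ratio was 1.39 on array 2 of rin at 35 DAP and -0.5 to 0.47 on all other arrays. Every rin value at 35 DAP includes that array.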

Additional observations from a re-analysis of the deposited data

Results flagged for a closer look

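The change with age differed between the genotypes, by the interaction test itself (rin change minus wild-type change, log2 scale, limma), for the following genes. For DXS it was -2.38 from 35 to 45 DAP (adjusted p = 0.0043). For Psy1 it was -2.12 from 35 to 40 DAP (adjusted p = 0.0249). For ZDS it was -1.22 from 35 to 40 DAP (adjusted p = 0.0162) and -1.70 from 35 to 45 DAP (adjusted p = 0.0014). For CrtR-b1 it was -2.44 from 40 to 45 DAP (adjusted p = 0.00434) and -2.18 from 35 to 45 DAP (adjusted p = 0.00239).

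Among the other pathway genes the same test gave, for PTOX, -1.49 from 35 to 40 DAP (limma adjusted p = 0.0284) and -1.86 from 35 to 45 DAP (adjusted p = 0.00637). For FLACCA it gave -1.58 from 35 to 45 DAP (adjusted p = 0.0379, and 0.0568 with the replicate number as a block). FPPS1 went the other way, with 2.34 from 40 to 45 DAP (adjusted p = 0.0259) and 2.26 from 35 to 45 DAP (adjusted p = 0.0105). Leaving out 1 array ended the call in 6 cases for PTOX from 35 to 40 DAP (adjusted p up to 0.0739), 8 for FLACCA (up to 0.107) and 6 for FPPS1 from 40 to 45 DAP (up to 0.0727). No test for outlying arrays was run on these groups of 3.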

How the results depend on the processing

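Members called between genotypes at 40 DAP went from 4 to 2 of 5 when only the arrays compared were fitted, those of the wild-type step from 40 to 45 DAP from 3 to 0, and those of the interaction from 35 to 40 DAP from 2 to 0. DXS at 40 DAP kept a log2 difference of -0.95 but lost its call with no filter (limma adjusted p = 0.0607), no variance trend (0.054), only the arrays compared (0.182) and rin arrays 2 and 3 at 45 DAP averaged (0.0571), and at -0.96 with the 3' to 5' ratio as covariate (0.0505). PDS at 40 DAP (-1.04) lost it with only the arrays compared (0.0978). PDS at 45 DAP was called with median centring (-0.86, adjusted p = 0.0471), only the arrays compared (-0.78, 0.0449) and both first rin arrays at 40 and 45 DAP left out (-1.0, 0.0188). With only the arrays compared, calls were also lost for the wild-type steps of DXS (adjusted p = 0.0989 and 0.0797), ZDS from 40 to 45 DAP (0.074) and CrtR-b1 from 40 to 45 DAP (0.0527), PDS in rin (0.0654), and the interactions of Psy1 and ZDS from 35 to 40 DAP (0.0578 and 0.0579). PDS in rin was also lost with rin arrays 2 and 3 at 45 DAP averaged (0.0577), as was ZDS in wild type from 40 to 45 DAP (0.0544), and with the 3' to 5' covariate (0.0943), as was CrtR-b1 in wild type from 35 to 45 DAP (0.0579). The interaction of Psy1 from 40 to 45 DAP was 0.48 with its brightest probe set and was not called. With its second probe set the value was -0.23, but that probe set was dim on all rin arrays. The rin part of that value thus rests on dim signals, and no test is given for it. Median centring moved the 65 differences and changes of the 5 genes by -0.13 to 0.07 and quantile normalization by -0.1 to 0.09 on the log2 scale, and reversed none. With fewer arrays the fit has fewer degrees of freedom, and the cause was not tested otherwise.

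Leaving out each array in turn gave 2 to 4 members called at 40 DAP, 2 to 4 in wild type from 35 to 40 DAP, 1 to 3 from 40 to 45 DAP, 1 to 2 for the interaction from 35 to 40 DAP and 1 to 2 for the difference of the wild-type steps. In the same order, the share of all probe sets called ran from 16% to 28.8%, 22% to 33.7%, 4.02% to 9.51%, 5.31% to 14.6% and 3.85% to 10.2%. The same fits gave DXS -1.38 to -0.65 and PDS -1.34 to -0.75 at 40 DAP, and PDS -1.0 to -0.61 at 45 DAP. Values that were not called and turned sign were DXS (-0.35 to 0.02), ZDS (-0.36 to 0.06) and CrtR-b1 (-0.04 to 0.21) between genotypes at 35 DAP, and DXS in rin from 40 to 45 DAP (-0.36 to 0.08) and 35 to 45 DAP (-0.08 to 0.30). So did the interactions of CrtR-b1 from 35 to 40 DAP (0.00 to 0.52) and PDS from 40 to 45 DAP (-0.03 to 0.56), and the difference of the wild-type steps of DXS (-0.38 to 1.07).

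The share of all probe sets called moved by more than 1.5 times in places. With only the arrays compared it was 0.0907% at 35 DAP, 13.9% at 40 DAP, 3.86% for wild type from 40 to 45 DAP, 5.11% for rin from 35 to 45 DAP, and 5.4% and 2.14% for the interactions from 35 to 40 and 40 to 45 DAP. With rin arrays 2 and 3 at 45 DAP averaged (r = 0.996 between them) it was 18.7% at 45 DAP, 3.78% for rin from 35 to 45 DAP, and 1.15% and 8.62% for the interactions from 40 to 45 and 35 to 45 DAP. With no filter it was 6.98% for rin from 35 to 45 DAP, and 5.82% and 2.47% for the first 2 interactions, and with the 3' to 5' ratio as covariate 2.53% for that rin comparison. For rin from 40 to 45 DAP it ran from 0% to 2.89%, and for rin from 35 to 40 DAP from 0% to 0.0389%. Leaving out 1 array took these to as much as 3.78% and 8.37%, and rin from 35 to 45 DAP to between 3.46% and 22.7%.

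Replicate numbers recur across groups. The codes in the titles do not follow them throughout in wild type, but in rin they do except for array 1 at 45 DAP. Same-numbered arrays mostly did not deviate together (median r = 0.03 over 45 pairs, -0.501 to 0.483). Between rin at 40 and 45 DAP, r was 0.479 for arrays 1, 0.483 for arrays 2 and -0.025 for arrays 3. Of 18 arrays, 9 correlated best with an array of their own replicate number in another group. With the replicate number as a block, 120 of 123 results kept their call, and members called stayed at 4 of 5 at 40 and at 45 DAP. The exceptions were FLACCA in wild type from 40 to 45 DAP (adjusted p = 0.0567), its interaction from 35 to 45 DAP (0.0568) and PTOX in rin (0.0546). With the title code as a random block 122 kept it.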
